A study of Homo sapiens with 1 sample.

Results

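The RUNX family transcription factor genes RUNX1, RUNX2 and RUNX3 and the gene of their shared partner subunit, CBFB, were examined in chromatin accessibility data from a kidney cancer cell line. These 4 genes, of 20033 protein-coding genes, were chosen by name. Their accessible sites were taken as every peak whose summit lay inside the gene record of GENCODE release 44 or within 100 kb of either end, which gave 153 of 88615 peaks on the 24 primary chromosomes.

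The study asked how the chromatin factor DPF3 acts in clear cell renal cell carcinoma. The material analysed here is 1 library of ATAC-seq, a method in which Tn5 transposase inserts sequencing adapters into open chromatin. The cells were 786-O, an established line of human clear cell renal cell carcinoma, and the group is the empty vector control, so no DPF3 was overexpressed in it. There was 1 library and no replicate: no value has a replicate error and no difference between sites was tested.

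RUNX proteins bind DNA through their Runt domain, and CBFB, which does not bind DNA itself, strengthens that binding. RUNX1 is known for blood formation, RUNX2 for bone formation, and RUNX3 for T cell, neuron and epithelial biology. Each RUNX gene has a distal promoter, P1, and a proximal promoter, P2, which start messages for proteins with different N termini. P1 and P2 were told apart here by the N terminus that each annotated coding transcript encodes, and a promoter was called open when a summit lay between 1 kb upstream and 100 bp downstream of one of its starts.

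The sequences next to the P1 starts are shown first because the 3 genes had one element in common there. It consists of the RUNX motif TGTGGT, read as ACCACA on the coding strand, in tandem with 2 bases between the copies. The 30 bases around each tandem are given below in hg38, 5′ to 3′ on the coding strand, with RUNX motifs (TGTGGT or TGCGGT on either strand) in capitals. The tandem was at chr21:35049259-35049288, minus strand, for RUNX1, at chr6:45328338-45328367, plus strand, for RUNX2, and at chr1:24965120-24965149, minus strand, for RUNX3.
RUNX1 P1 tandem: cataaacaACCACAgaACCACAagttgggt
RUNX2 P1 tandem: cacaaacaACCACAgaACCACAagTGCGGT
RUNX3 P1 tandem: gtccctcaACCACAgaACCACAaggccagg
The first base of the tandem lay 22 bp downstream of the P1 start of RUNX1 and 16 bp downstream of that of RUNX2, in the first exon of both, and 131 bp upstream of the P1 start of RUNX3. The RUNX1 and RUNX2 copies were inside a peak and the RUNX3 copy was not. No such tandem was in the same window at any P2 or at the CBFB promoter. Within 250 bases to each side of the canonical start it was found, on either strand, in 4 of 20033 protein-coding promoters (0.0200%), among them RUNX1 and RUNX2. The canonical start of RUNX3 is its P2, so its P1 was not among these 20033. The element was picked out after the sequences had been read, and a match is a run of letters and not a measured binding site.

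The upstream sequences of the 7 promoters follow, since they differ as much in base composition as in accessibility. Each is the nearest run of 200 bases upstream of the start that holds no annotated exon of a coding gene transcript, so it ends at the start itself for RUNX1 P2 and RUNX3 P2 and 42, 173, 449, 111 and 165 bp before it for RUNX1 P1, RUNX2 P1, RUNX2 P2, RUNX3 P1 and CBFB, with RUNX and AP-1 motifs (TGAGTCA on either strand) in capitals. They lie at chr21:35049345-35049544, minus strand; chr21:34888691-34888890, minus strand; chr6:45327957-45328156, plus strand; chr6:45421836-45422035, plus strand; chr1:24965122-24965321, minus strand; chr1:24930277-24930476, minus strand; and chr16:67028784-67028983, plus strand, in the order printed.
RUNX1 P1: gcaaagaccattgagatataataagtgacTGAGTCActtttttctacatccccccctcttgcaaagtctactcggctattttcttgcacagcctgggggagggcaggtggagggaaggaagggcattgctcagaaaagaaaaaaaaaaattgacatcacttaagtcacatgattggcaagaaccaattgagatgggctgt
RUNX1 P2: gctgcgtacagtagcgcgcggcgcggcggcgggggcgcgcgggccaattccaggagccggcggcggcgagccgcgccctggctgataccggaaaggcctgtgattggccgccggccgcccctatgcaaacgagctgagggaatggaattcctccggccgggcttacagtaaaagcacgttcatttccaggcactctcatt
RUNX2 P1: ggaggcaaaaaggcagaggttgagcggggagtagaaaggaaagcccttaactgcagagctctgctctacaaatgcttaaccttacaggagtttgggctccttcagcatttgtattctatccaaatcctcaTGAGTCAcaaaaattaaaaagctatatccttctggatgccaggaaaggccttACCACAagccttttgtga
RUNX2 P2: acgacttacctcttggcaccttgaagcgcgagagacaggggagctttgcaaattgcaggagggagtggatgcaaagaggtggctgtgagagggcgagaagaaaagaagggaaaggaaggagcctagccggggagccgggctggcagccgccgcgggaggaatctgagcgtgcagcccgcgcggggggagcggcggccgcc
RUNX3 P1: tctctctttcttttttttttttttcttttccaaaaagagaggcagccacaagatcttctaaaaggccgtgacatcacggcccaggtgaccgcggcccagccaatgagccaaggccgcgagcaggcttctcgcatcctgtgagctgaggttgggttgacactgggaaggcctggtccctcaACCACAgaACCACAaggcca
RUNX3 P2: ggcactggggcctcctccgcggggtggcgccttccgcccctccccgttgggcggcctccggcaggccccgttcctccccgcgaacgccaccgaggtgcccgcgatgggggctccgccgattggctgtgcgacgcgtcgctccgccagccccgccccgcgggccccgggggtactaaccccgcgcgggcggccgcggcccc
CBFB promoter: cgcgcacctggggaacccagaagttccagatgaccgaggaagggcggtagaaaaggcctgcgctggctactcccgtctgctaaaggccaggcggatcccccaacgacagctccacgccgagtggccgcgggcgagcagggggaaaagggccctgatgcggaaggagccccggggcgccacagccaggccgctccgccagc
The P1 sequences of RUNX1 and RUNX2 each held 1 AP-1 motif, and the other 5 sequences held none. In the 200 bases directly before the canonical start, a window of the same length that is not the same one for the 5 shifted sequences, 2.5% of all protein-coding promoters had one. A RUNX motif was in the RUNX2 P1 sequence (1 match) and the RUNX3 P1 sequence (2 matches, the tandem), and in 12.4% of all promoters in the window before their start. The RUNX3 P2 sequence held 4 matches of the SP/KLF motif GGGCGG, read on both strands, and RUNX1 P2 and CBFB held 1 each, where 56.3% of all promoters had at least 1.

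Both promoters of RUNX1 were open, both promoters of RUNX2 were open at a lower level, and neither promoter of RUNX3 held a peak, so 4 of 6 RUNX promoters were open. The CBFB promoter was open. Over all protein-coding genes, 61.4% had a promoter peak at some transcript, and 3 of the 4 genes here did. Fold enrichment, the unit used below, is the number of fragments piled up at the summit against a single background of the genome, each plus 1, and each fold is followed by its 95% exact Poisson interval, which covers counting error only.

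At RUNX1 P1 the fold was 33.0 (25.5 to 42.0), from 63 stacked fragments, higher than 88.2% of all peaks. The summit was 37 bp upstream of the start at chr21:35049302. The peak, chr21:35046250-35049676, was 3427 bp wide, wider than 99.7% of peaks, and ran mostly into the gene. At RUNX1 P2, 160.6 kb further along, the fold was 37.6 (29.5 to 47.2), higher than 91.2% of peaks. This peak, chr21:34887838-34890525, was 2688 bp wide and covered the main P2 start at chr21:34888690, but its summit lay 543 bp downstream of that start, in exonic sequence. It was counted because a shorter P2 transcript starts further on, at chr21:34887183. The intervals of the P1 and P2 folds overlapped, so no order between them is given.

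RUNX2 had the same arrangement at lower values. The fold was 11.3 (7.21 to 17.1), from 21 stacked fragments, at P1, with the summit 19 bp upstream of the start at chr6:45328330. It was 9.79 (6.01 to 15.2), from 18 fragments, at P2, 94.2 kb further on, with the summit 275 bp upstream of chr6:45422485. These values stood above 52.1% and 44.9% of all peaks, and above 28.7% and 23.8% of the peaks at promoters, whose median fold was 19.6. The P2 peak was low but 1763 bp wide, wider than 95.5% of peaks, and it was also at the promoter of the lncRNA ENSG00000271857, so that the signal of the gene pair cannot be told apart. The P1 summit lay inside SUPT3H as well, a gene that starts within RUNX2 and is transcribed the other way. The intervals of the 4 open RUNX promoters did not overlap between RUNX1 and RUNX2. The median promoter fold of the chromosome itself was 17.0 on chromosome 21 and 19.6 on chromosome 6.

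RUNX3 had no summit at P1 (chr1:24965010) or at P2 (chr1:24930276), and none at any of its 4 annotated starts. The nearest summit to P1 was 1863 bp upstream, with a fold of 5.67 (2.99 to 9.99), and the nearest to P2 was 2228 bp upstream, with a fold of 7.21 (4.08 to 12.0). They rested on 10 and 13 stacked fragments, where the lowest pileup on the list was 9. A closed promoter means here that the deposited list holds no peak at it. The lowest score on the list was 52, above the score that the stated q-value threshold of the peak caller gives, so weaker called peaks may not be on the list, and a lower signal was not measured.

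The CBFB promoter had a fold of 22.2 (16.1 to 29.8), higher than 77.1% of all peaks and 55.5% of promoter peaks. Its summit was 257 bp upstream of the start at chr16:67029149 and 92 bp before the first base of the gene record, so the strongest signal of the promoter fell just outside the annotated gene.

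**Figure D1:**
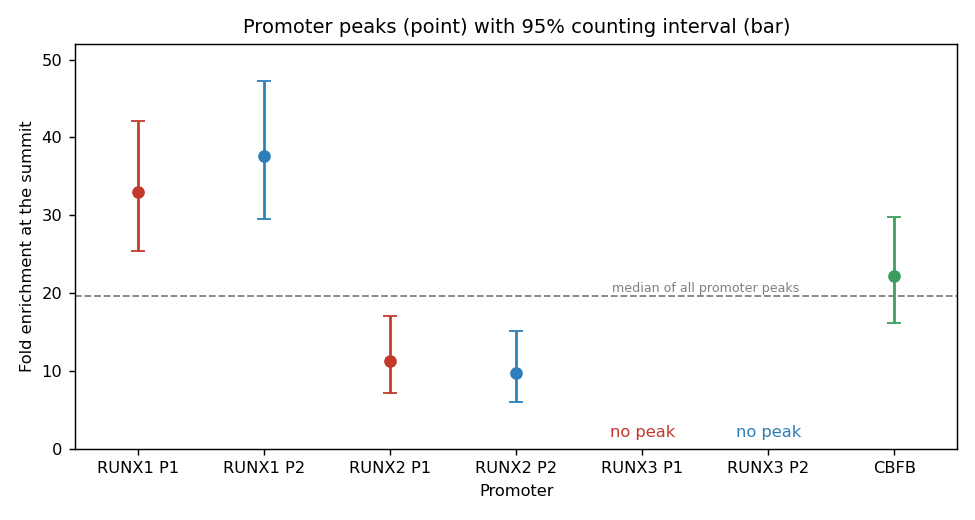
Fold enrichment (y axis, linear) of the peak at each promoter (x axis), as points with 95% exact Poisson intervals of counting error. RUNX1 P1 and P2 sit at 33.0 and 37.6, RUNX2 P1 and P2 at 11.3 and 9.79, CBFB at 22.2, and RUNX3 has no peak at either; the dashed line is the median of all promoter peaks, 19.6.

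The shared architecture of the family allows a comparison with other genes that have coding starts far apart. Among 5762 protein-coding genes whose coding starts were at least 10 kb apart, 46.5% had a peak at the start farthest upstream, 12.2% at the start farthest downstream, 5.05% at both and 46.4% at neither. RUNX2 was open at both and RUNX3 at neither by the same rule. RUNX1 was open at P1 and P2, but by that rule it was closed upstream, because 1 transcript with the P1 N terminus starts at chr21:36004667, 955.4 kb before the usual P1, and the summit nearest to that start was 8969 bp away.

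Base composition, taken from 250 bases upstream to 50 downstream of each start, differed between the promoters and did not follow openness. The P1 promoters of RUNX1 and RUNX2 were poor in CpG, with 43.0% and 42.7% GC and an observed to expected CpG ratio of 0.0734 and 0.147, and both were open. RUNX3 P1 had 66.3% GC and a ratio of 0.460. The 3 P2 promoters had 71.7%, 63.7% and 76.0% GC, with ratios of 1.04, 0.830 and 0.879, for RUNX1, RUNX2 and RUNX3, and CBFB had 79.7% and 1.10. A promoter was called CpG-rich at a GC share of at least 55% and a ratio of at least 0.6. Of the 4 CpG-rich promoters, 3 were open, against 69.8% of CpG-rich canonical promoters in the genome, and RUNX3 P2 was the closed one. Of the 3 promoters that were not CpG-rich, 2 were open, against 23.4%. The genome shares count the canonical start alone, so the rules differ. RUNX1 P2 was counted as open here through its shorter transcript. Its peak covered the main start, where the base composition was taken, but no summit lay in the window of that start.

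Across all annotated starts of these genes, a promoter peak was found at 6 of 16 for RUNX1, 7 of 11 for RUNX2, 0 of 4 for RUNX3 and 8 of 12 for CBFB. The open starts of RUNX1, RUNX2 and CBFB drew on 2, 2 and 1 separate peaks. The starts are therefore not independent observations of an open promoter. No share over all annotated starts of the genome stands beside these counts, so they are not read as high or low.

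**Figure D2:**
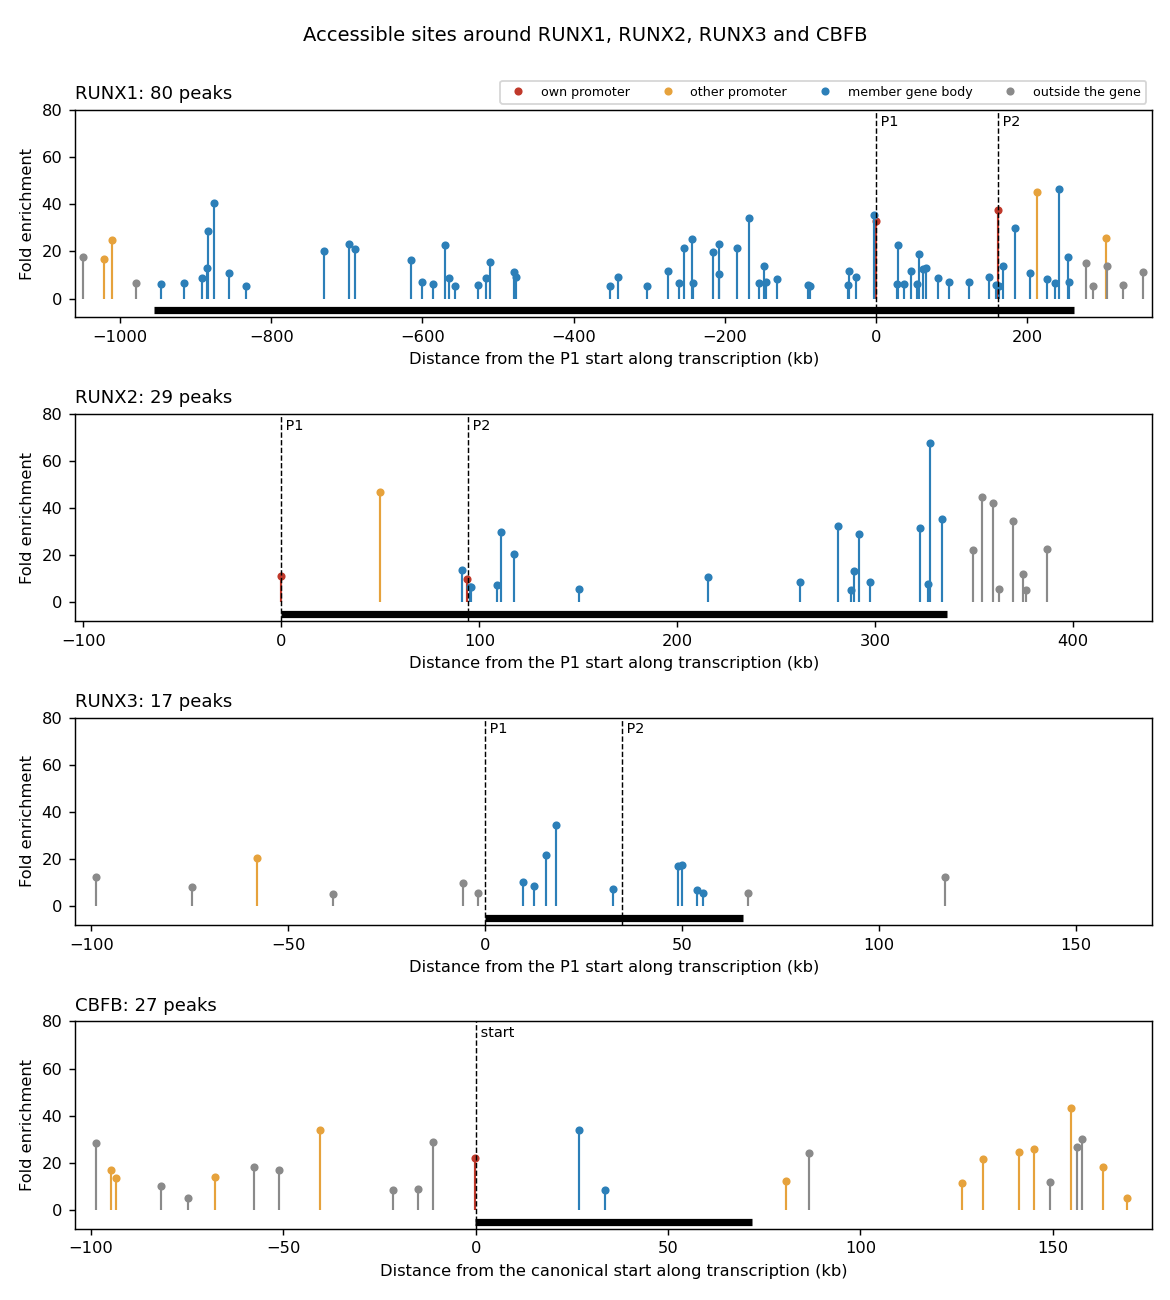
Fold enrichment (y axis) of each peak against its distance in kb from the P1 start, or from the canonical start for CBFB, along the direction of transcription (x axis), with colours for the class of the peak, a black bar for the gene record and dashed lines for the promoters. The tallest RUNX2 peak, at 67.5, stands 327.7 kb past P1, RUNX1 peaks are spread over the whole record, and CBFB has 2 peaks inside its record.

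The number and density of sites differed between the windows. RUNX1 (ENSG00000159216.19, chr21:34787801-36004667, minus strand) had 80 peaks, RUNX2 (ENSG00000124813.23, chr6:45328157-45664349, plus strand) had 29, RUNX3 (ENSG00000020633.19, chr1:24899511-24965121, minus strand) had 17 and CBFB (ENSG00000067955.15, chr16:67028984-67101058, plus strand) had 27. The 70 peaks inside the RUNX1 record were more than 99.99% of protein-coding genes had, where the median gene had 1, but that record spans 1217 kb. Per Mb of window, RUNX1 had 56.5 peaks (44.8 to 70.3), RUNX2 54.1 (36.2 to 77.7), RUNX3 64.0 (37.3 to 102.5) and CBFB 99.2 (65.4 to 144.4). The median over all protein-coding genes was 44.4, so that the windows were denser than those of 63.4%, 60.9%, 71.0% and 92.1% of genes, in the same order.

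The 153 peaks were close in strength to the list as a whole. Their median fold was 11.9 against 10.8, and 48 of them (31.4%, 24.1 to 39.4, 95% exact binomial interval) exceeded a fold of 20, against 26.0% of all peaks, which lies inside that interval. Strong peaks by this measure made up 20 of 80 near RUNX1, 13 of 29 near RUNX2, 3 of 17 near RUNX3 and 12 of 27 near CBFB. The peaks were at promoters of the 4 genes (5, 3.27%), at promoters of other genes (18, 11.8%), elsewhere inside the 4 genes (96, 62.7%) or outside them (34, 22.2%). Together 15.0% (9.77 to 21.7, 95% exact binomial interval) were at a promoter, against 19.4% of all peaks. Of all peaks, 53.9% were inside a gene away from promoters and 26.7% between genes. These classes count any gene and the windows were laid around 4 genes, so the shares are not fully alike.

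In RUNX1, the stretch past P2 was the densest by value and held the strongest peaks. From P2 to the 3′ end there were 11 peaks, or 109.0 per Mb (54.4 to 195.1), between P1 and P2 13, or 80.9 (43.1 to 138.4), and in the part of the record upstream of P1 46, or 48.1 (35.3 to 64.2). The intervals overlapped. The strongest peak, at chr21:34807390-34809087, had a fold of 46.4 (37.3 to 57.0) and its summit was in an intron 81.0 kb past P2. The next, with 45.3 (36.4 to 55.8), was at the promoter of the lncRNA ENSG00000286153, inside RUNX1 and 52.4 kb past P2.

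The part of RUNX1 upstream of P1 held strong sites too. A peak of 35.6 (27.7 to 44.9) stood 2.24 kb upstream of P1, separate from the promoter peak, and one of 40.7 (32.3 to 50.7) stood 875.9 kb upstream of P1. Of the 46 peaks in this part, 13 exceeded a fold of 20, a share close to the 26.0% of all peaks. Their median fold was 9.79, against 10.8 over all peaks, so the part did not stand out by strength. The longest stretch without a summit, 125.0 kb, was also there. The 2 strongest peaks outside the gene were at promoters, those of LINC01426 (25.8, 19.2 to 33.9) and of SETD4 with SETD4-AS1 (24.7, 18.3 to 32.7).

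RUNX2 was lopsided. No summit lay in the 100 kb upstream of the gene, which allows a density of up to 36.9 per Mb by the exact Poisson limit, and the nearest summit upstream was 252.7 kb away. Between P1 and P2 there were 3 peaks, or 31.9 per Mb (6.57 to 93.1), and from P2 to the canonical 3′ end 7, or 54.4 (21.9 to 112.2). Beyond the canonical 3′ end, in the rest of the gene record and the flank, there were 18 peaks in 213.3 kb, of which 10 exceeded a fold of 20, with a median of 22.4. This stretch was set apart after its values were seen. The nearest coding start to each of its 10 strong peaks was one of RUNX2.

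The strongest site of all 4 windows was in that stretch. It covered chr6:45655511-45657643, had a fold of 67.5 (56.5 to 80.1), from 130 stacked fragments, higher than 98.7% of peaks, and lay 327.7 kb past P1. Others inside the record reached 35.6 (27.7 to 44.9), 32.5 (25 to 41.5) and 31.4 (24.1 to 40.3), at 333.6, 281.0 and 322.5 kb past P1. Past the end of the record there were 2 of 44.8 (36.0 to 55.2) and 42.3 (33.7 to 52.4), at 353.7 and 359.5 kb. Between P1 and P2 the strongest peak, 46.9 (37.8 to 57.5), was at the promoter of SUPT3H, a gene of a transcription co-activator complex. It was higher than either RUNX2 promoter, with no overlap of intervals.

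RUNX3 had its strongest sites between its closed promoters, where 5 peaks gave 144.0 per Mb (46.7 to 335.9). A peak at chr1:24946541-24948070 had a fold of 34.5 (26.8 to 43.8), higher than 89.3% of peaks, 16.7 kb upstream of P2. A second, at chr1:24949049-24949906, had 21.6 (15.7 to 29.2), 19.3 kb upstream of P2. The other 3 peaks in that stretch were weaker, the highest having 10.3 (6.41 to 15.8). Downstream of P2, 2 peaks had 17.5 (12.2 to 24.4) and 17.0 (11.8 to 23.8), 15.3 and 14.2 kb past the start. The strongest outside the gene were one at MIR4425, 58.0 kb upstream of P1, with 20.6 (14.8 to 28.0), and a pair of equal fold, 12.4 (8.03 to 18.3), one beyond the 3′ end and one 98.9 kb upstream of P1. The 9 peaks inside RUNX3 were therefore all away from its promoters, and none was exonic.

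CBFB differed from the RUNX genes in where its sites were. Only 2 of its 27 peaks lay inside the record, one in an intron 26.7 kb past the start, at chr16:67055558-67056312, with a fold of 34.0 (26.4 to 43.2), and one of 8.24 (4.84 to 13.3) 33.5 kb past it. That is 27.8 per Mb (3.37 to 100.5) in the canonical transcript, against 129.8 (69.1 to 221.9) upstream and 120.0 (62.0 to 209.6) downstream, with overlapping intervals. In this window 13 peaks (48.1%, 28.7 to 68.1) were at promoters, 12 of them at those of other genes, against 7.5% (2.80 to 15.6) near RUNX1, where the intervals did not overlap. The neighbours with the highest promoter folds were MATCAP1 (43.3, 34.6 to 53.5), CES4A (34.0, 26.4 to 43.2) and NOL3 (25.8, 19.2 to 33.9), out of 11 neighbour genes with a promoter peak. Near RUNX1 there were 6 such genes, of which CBR1 (17.0, 11.8 to 23.8) and SETD4 code for protein, near RUNX2 2, and near RUNX3 MIR4425 alone. The high density near CBFB thus lay in the gene-rich flanks, and with flanks of 50 kb it fell from 99.2 to 52.3 per Mb, denser than 57.6% of genes.

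**Figure D3:**
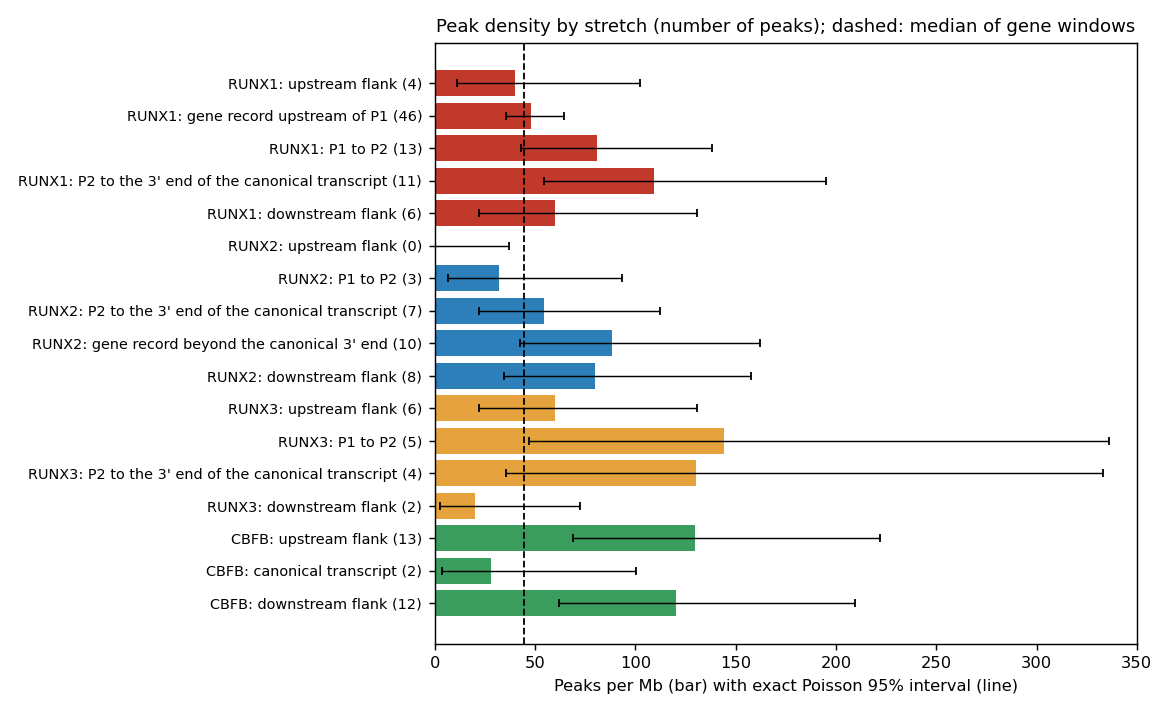
Peaks per Mb (x axis) in each stretch of the 4 windows (y axis, number of peaks in brackets), as bars with exact Poisson 95% intervals; the dashed line is the median of all protein-coding gene windows, 44.4. RUNX2 has no peak in its upstream flank, RUNX3 is densest between its promoters, at 144.0, and CBFB is denser in its flanks than in its transcript.

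The strongest site away from promoters inside each gene record is shown by the 101 bases around its summit, with the second for RUNX3, whose promoters held no peak. Capitals mark RUNX and AP-1 motifs. They are chr21:34807681-34807781, minus strand; chr6:45656003-45656103, plus strand; chr1:24946892-24946992, minus strand; chr1:24949489-24949589, minus strand; and chr16:67055822-67055922, plus strand, in hg38.
RUNX1, fold 46.4: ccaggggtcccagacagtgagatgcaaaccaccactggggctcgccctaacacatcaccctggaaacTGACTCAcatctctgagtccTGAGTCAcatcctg
RUNX2, fold 67.5: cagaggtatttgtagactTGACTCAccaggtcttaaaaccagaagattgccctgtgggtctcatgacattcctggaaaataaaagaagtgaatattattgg
RUNX3, fold 34.5: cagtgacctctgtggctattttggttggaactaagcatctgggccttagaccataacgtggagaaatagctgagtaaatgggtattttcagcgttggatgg
RUNX3, fold 21.6: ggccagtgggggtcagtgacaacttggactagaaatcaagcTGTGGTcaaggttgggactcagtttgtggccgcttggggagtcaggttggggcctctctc
CBFB, fold 34.0: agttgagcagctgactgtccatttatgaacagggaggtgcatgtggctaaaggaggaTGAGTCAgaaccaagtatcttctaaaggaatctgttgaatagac
The strongest of these sites in RUNX1, RUNX2 and CBFB held AP-1 motifs, 2 in RUNX1 and 1 each in the others. The next sites inside the records, with folds of 40.7 and 35.6 in RUNX1 and of 35.6 and 32.5 in RUNX2, held neither a RUNX nor an AP-1 motif. The leading RUNX3 site held no RUNX or AP-1 motif and 1 match of ACGTG, the core of the hypoxia response element bound by HIF factors, and the second held 1 RUNX motif.

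Over all 153 summits the motifs were close to the whole list. A RUNX motif was within 50 bp of 25 summits (16.3%, 10.9 to 23.2), against 14.8% of all summits, so sites near the RUNX genes carried the family's own motif about as often as sites elsewhere. By window, it was at 13 of 80 summits near RUNX1, 7 of 29 near RUNX2, 3 of 17 near RUNX3 and 2 of 27 near CBFB, with overlapping intervals. The only promoter summit among the 4 genes with the motif was RUNX2 P1, which had 2 matches, those of the tandem. Of the 5 strong peaks past the end of the RUNX2 record, 3 had the motif, with folds of 42.3, 34.5 and 22.2. The 5 strong peaks between the canonical 3′ end and the end of the record, with the strongest site of all among them, had none. Over this whole stretch, flank included, the motif was at 5 of 18 summits.

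The AP-1 motif, bound by FOS and JUN dimers, was at 29 summits (19.0%, 13.1 to 26.1), against 15.7%. It was at 19 of 80 near RUNX1 (23.8%, 14.9 to 34.6) and 2 of 29 near RUNX2 (6.90%, 0.846 to 22.8), and these intervals overlapped. RUNX and AP-1 motifs were together at 3 summits (1.96%), against 2.21% of all summits. The TEAD motif GGAATG was at 13 (8.50%) against 9.41%, the ETS motif CCGGAA at 7 (4.58%) against 2.98%, and the SP/KLF motif at 8 (5.23%) against 8.45%. The hypoxia element ACGTG was at 14 (9.15%) against 7.04%. By window it was at 5 of 80 near RUNX1, 0 of 29 near RUNX2, 4 of 17 near RUNX3 and 5 of 27 near CBFB. The intervals of these windows overlapped, and each held the 7.04%. The short HNF1 site GTTAAT was at 4 (2.61%) against 3.67%, and the CTCF motif at 3 (1.96%) against 0.985%. The letters TGTCAGA, a scrambled AP-1 motif, were at 4 (2.61%) against 1.67%. The motifs were read on both strands, ETS and SP/KLF matches can overlap other motifs, and the interval of each share over the 153 summits held the share of the whole list.

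**Figure D4:**
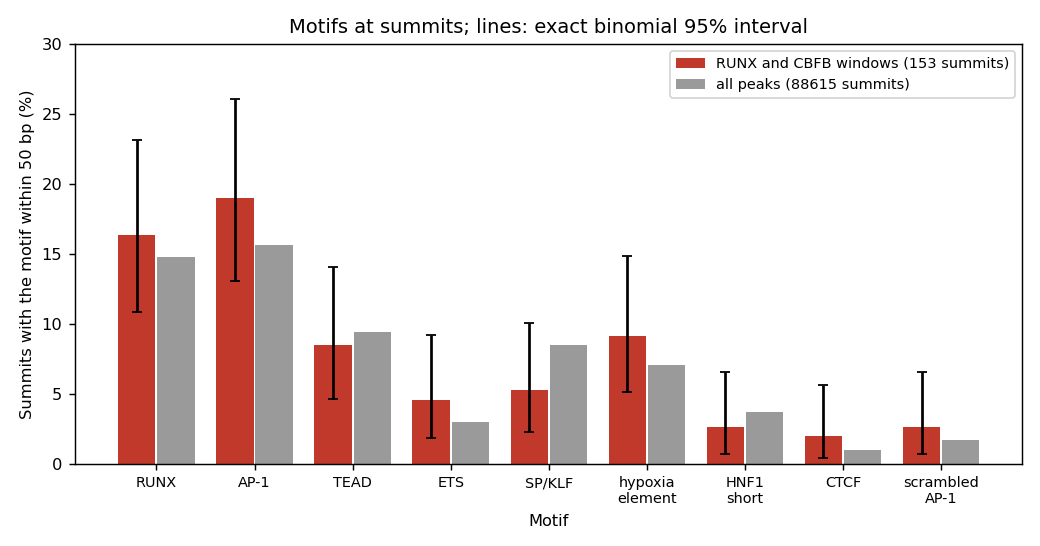
Share of summits with each motif within 50 bp (y axis, %), for the 153 summits of the RUNX and CBFB windows (red, with exact binomial 95% intervals) and for all summits (grey). RUNX is at 16.3% against 14.8% and AP-1 at 19.0% against 15.7%, and each interval holds the grey value.

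Promoters were also counted for genes whose products work with RUNX proteins and for genes that RUNX proteins are known to control in blood, bone, lymphoid cells and epithelium. Of 61 listed partners and targets, 46 had a promoter peak (75.4%, 62.7 to 85.5), with a median fold of 26.8, against the 61.4% of all protein-coding genes given above and a median of 25.8 over those with a peak. The lists were chosen with earlier results of these data known, so the gap between these shares is a description and was not tested. Co-repressors were open in 12 of 14, led by TLE4 (100.5, 86.9 to 115.6) and TLE1 (78.8, 66.9 to 92.3), Groucho proteins that RUNX factors recruit through their C terminus. TLE2 and CBFA2T3 had no promoter peak. Co-activators and chromatin writers were open in 6 of 6, led by the acetyltransferase KAT6B (81.4, 69.3 to 95.1) and the methyltransferase PRMT1 (40.2, 31.8 to 50.1).

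Enzymes that modify or degrade RUNX proteins were open in 7 of 9, with the ubiquitin ligase WWP1 (79.4, 67.4 to 92.9) highest. CDK6 and SMURF1 had no promoter peak. Partner transcription factors were open in 8 of 9, with JUN (91.7, 78.8 to 106.2), a subunit of AP-1, and ETS1 (70.1, 58.8 to 82.9) highest, and CEBPB had none. Among these 4 lists of partners the share open was between 77.8% and 100%. It was 50.0%, 55.6% and 66.7% in the lists of skeletal, blood and RUNX3 targets. The intervals of these 3 lists overlapped those of the partners and held the 61.4% of all protein-coding genes. No difference between lists was tested.

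Among skeletal targets of RUNX2, 4 of 8 were open, with SPP1 (osteopontin, 33.5, 25.9 to 42.6) and TNFRSF11B (osteoprotegerin, 27.3, 20.5 to 35.7) highest, and SP7, IBSP, COL10A1 and ALPL had no promoter peak. SP7 is the bone factor that acts after RUNX2. Among blood targets of RUNX1, 5 of 9 were open, with the cytokine gene CSF2 (29.4, 22.3 to 38) and CSF1R (15.5, 10.5 to 22.0) highest, and SPI1, IL3, MPO and PF4 had none. CSF1R, GFI1 and ITGA2B had their peak at a start other than the canonical one. GFI1 and ITGA2B rested on 9 stacked fragments each, the lowest pileup on the list. Among targets named for RUNX3, 4 of 6 were open, with BCL2L11 and ZBTB7B (36.6 each, 28.6 to 46.1) highest, and CDKN1A and ITGAE had none.

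**Figure D5:**
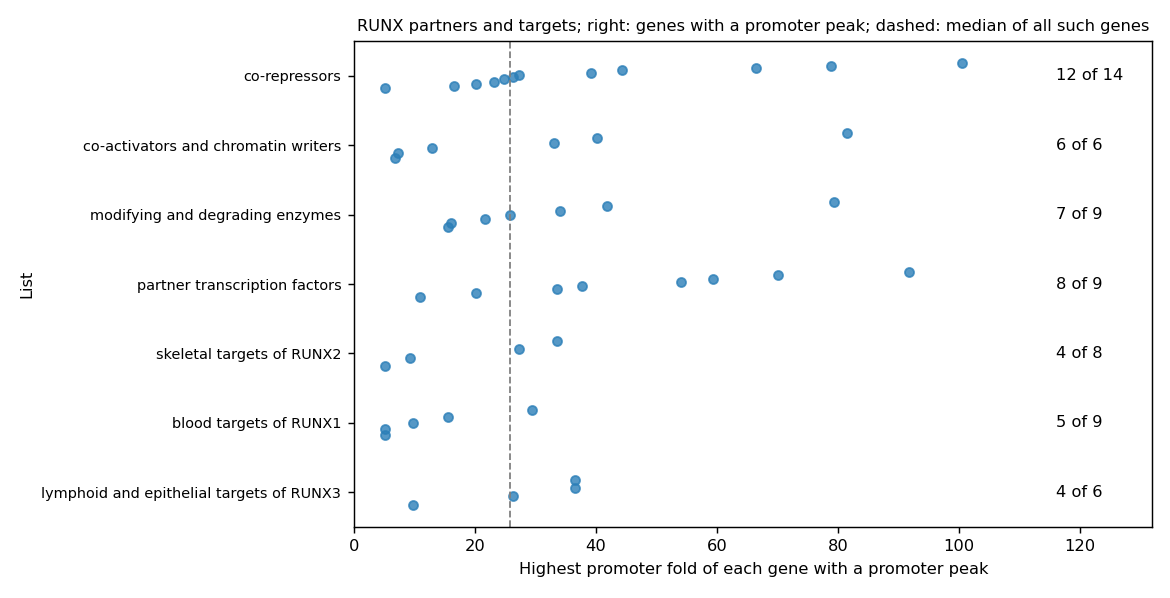
Highest promoter fold (x axis) of each gene with a promoter peak in the 7 lists (y axis), 1 point a gene, with the number of open genes at the right and the median of all protein-coding genes with a promoter peak, 25.8, as a dashed line. Partner factors reach 91.7 and co-repressors 100.5, while the highest blood target has 29.4.

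The label of the cells was checked against marker genes. Of the renal and clear cell carcinoma markers, 4 of 8 had a promoter peak, PAX8 (31.9), PAX2 (22.7), VIM (47.9) and NDUFA4L2 (8.24), and LHX1, EMX2 and CA9 were among those with none. This share, 50% (15.7 to 84.3), was not above the 61.4% of all protein-coding genes, so the count does not bear out the label. The peaks of VIM and NDUFA4L2 were at a start other than the canonical one, and that of NDUFA4L2 rested on 15 stacked fragments. None of 5 blood markers, 3 skeletal and muscle markers or 3 markers of liver, pancreas and neuron had a promoter peak.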

How the data were processed

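ATAC-seq was carried out by the authors on 786-O cells carrying an empty vector (1 library). Per the labels and the study's methods, reads were trimmed with fastp, aligned to hg38 with Bowtie2 2.3.4.3, filtered on mapping quality, mitochondrial origin and duplicates, and peaks were called with MACS2 2.2.6 on this library alone, with no local background. A shift of reads for Tn5 is not given in the sources used here, nor is the total depth. Names inside the list have a WT tag where the label has empty vector; the label was followed.

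The deposited peak list gives, for each peak, a fold over background (a ratio), −log10 p-values and q-values and a score that equals 10 times the −log10 q-value, cut to a whole number, in 100% of peaks. It held 88676 peaks, 88615 on primary chromosomes. No deposited count was used: stacked fragments (9 to 300) were recovered from the fold, (pileup + 1)/(background + 1), with a background of 0.941, and came out whole within 1.69e-05. Intervals are at 95%, exact Poisson for pileups and densities and exact binomial (Clopper-Pearson) for shares, and cover counting error only. Fold is not corrected for copy number.

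Peaks were assigned by summit with GENCODE release 44 of the same build. No alignment of 10 kb or more joined the windows to any of 261 alternative sequences of the reference. Analyses used Python 3.11.15, pandas 2.3.3, SciPy 1.17.1 and pysam 0.24.0, and assignment, motif search and pileup recovery were tested on simulated data. Named sites were all promoter peaks, the 5 strongest peaks inside each gene and the 2 strongest outside it, and for each list the 2 highest genes and those without a peak, except that some items are not reported here. The members and lists were chosen with earlier results of these data known. Alternatives were other score minimums, promoter windows, flanks, motif windows and transcripts.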

Additional observations from a re-analysis of the deposited data

How the results depend on the processing

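No paired analysis was possible because there is 1 library. Of 204 values recomputed, 154 moved by less than their interval or by less than 1.5 times and 50 moved further, all under alternatives that were planned. A fold that was lost because its promoter had no peak under an alternative is in neither count. This holds for both RUNX2 promoters with a score above 200 and for RUNX1 P2 with its main start alone.

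With peaks of a score above 100, RUNX1 had 52 peaks (36.7 per Mb), RUNX3 11, and 3 blood targets were open. With a score above 200, RUNX1 had 37 peaks (26.1 per Mb), RUNX2 16 (29.8) and RUNX3 7 (26.4), both RUNX2 promoters dropped out (scores of 197 and 157), leaving 2 of 6 RUNX promoters, 2 skeletal and 2 blood targets were open, and peaks at other promoters were 20% and inside the genes 52.5%. A higher score minimum can only remove peaks, in any gene. By rank with a score above 200, RUNX1, RUNX2, RUNX3 and CBFB were denser than 59.8%, 66.8%, 60.1% and 98.3% of genes. With promoters of 2.5 kb to both sides, the weak peaks upstream of RUNX3 P1 and P2 counted as theirs, the 2.24 kb site replaced the RUNX1 P1 peak (35.6), own promoters were 8.50% of peaks, other promoters 19.0% and peaks outside the genes 15.7%. With the main start of each class alone, RUNX1 P2 had no summit in its window, leaving 3 of 6 RUNX promoters. With canonical transcripts alone, 2 blood targets were open, CSF2 and NFE2.

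With flanks of 50 kb, CBFB had 9 peaks (52.3 per Mb), other promoters were 4%, gene bodies 76.8% and outside sites 15.2%. Inside the gene records alone, RUNX3 had 9 peaks (137.2 per Mb) and CBFB 2 (27.7), the hypoxia element fell to 4.90% and CTCF to 0%, other promoters were 1.96%, gene bodies 94.1% and outside sites 0%. Divided by the chromosome's median promoter fold, RUNX1 P1 was 1.94, RUNX1 P2 2.21, RUNX2 P1 0.579, RUNX2 P2 0.5 and CBFB 1.16.

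With 100 bp to each side of the summit, RUNX was at 27.5%, AP-1 31.4%, SP/KLF 15.0% and HNF1 7.84%. Over the whole peak interval, RUNX was at 47.7%, AP-1 49%, TEAD 36.6%, ETS 13.1%, SP/KLF 28.8%, the hypoxia element 36.6%, HNF1 22.2% and the scrambled motif 12.4%; longer windows hold more matches by construction. With 1 library, counting error is the only error that could be given.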
